A study of Homo sapiens with 4 samples.

Results

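The mRNAs of the nuclear pore complex and of the receptors that carry cargo through it were measured in NUDUL1 cells. The members were all genes of the deposited table with a symbol beginning NUP, IPO or TNPO and a digit, KPNA or KPNB and a digit, or XPO and a digit or T. The names matched 45 of 25066 genes, and 44 of these were above 0 in at least 2 of the 4 libraries and were tested among 16945 genes. The only one not tested was KPNA7, an importin alpha, listed at 0 in all 4 libraries.

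The nuclear pore complex is a channel through the nuclear envelope built from nucleoporins: a scaffold of Y-shaped complexes and an inner ring, a central channel lined with phenylalanine-glycine repeats, filaments on the cytoplasmic face and a basket on the nuclear face. Importins bind cargo in the cytoplasm and release it when they meet RanGTP in the nucleus, whereas exportins bind cargo together with RanGTP and release it once GTP is hydrolysed. The pore disassembles in mitosis and is rebuilt in each daughter cell, and pores are also added during interphase.

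NUDUL1 is a human line of diffuse large B cell lymphoma (DLBCL) of the germinal center type. All 4 libraries came from Cas9-engineered cells given 10 nM U46619, an analog of thromboxane A2, for 24 h, and none came from untreated cells. The parent was a single-cell clone with doxycycline-inducible Cas9 that also carried a retrovirus encoding the thromboxane receptor Tbxa2r with a Thy1.1 reporter. The 2 genotypes, control and GNA13-deficient, differed in the guide RNA delivered, with 1 guide per genotype and 2 libraries per genotype. GNA13 encodes Gα13, a G protein subunit through which this receptor signals. An effect of the guide or of the particular cell population therefore cannot be told apart from one of the genotype, and p values measure only the spread between duplicates, which may be technical. Total mapped reads were 29209544 and 31537955 in the control libraries and 30141459 and 29685942 in those labelled GNA13-deficient.

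GNA13 mRNA was not lower in the libraries labelled deficient. Its log2 value was 12.46 and 12.45 in the control libraries against 13.10 and 13.11 in those labelled GNA13-deficient. The genotypes were separated by far more than the duplicates, and the difference was 0.65 on the log2 scale (SE 0.05, limma adjusted p = 0.00214). A cut by Cas9 need not remove the mRNA, but the level gave no support to the labels, and every direction given here rests on the labels alone. Values are the authors' normalized reads on the log2 scale, and each difference is the mean of the 2 libraries labelled GNA13-deficient minus the mean of the 2 control libraries.

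The libraries held a B cell transcriptome. CD79B, a chain of the B cell receptor complex and the most abundant of 6 B cell markers in reads, was at 18406 and 20831 reads in the control and at 17208 and 19198 reads in the GNA13-deficient-labelled libraries. The 6 B cell markers together came to 54794 and 59082 normalized reads in the control and to 52948 and 57278 in the other genotype. The T cell genes CD3D, CD3E and CD2 and the epithelial keratins KRT8 and KRT18 were at 0 in all 4 libraries. The summed myeloid markers, 4 genes, came to 228 and 242 normalized reads in the control and 28 and 27 in the other genotype, led by ITGAM with 125 and 145 reads against 3 and 4. CD14, the defining monocyte gene, was at 1 and 2 against 0 and 0 reads. CD4, the only T cell marker with reads, had 115 and 175 against 12 and 5. EPCAM, the only epithelial marker with reads, had 37 and 46 against 88 and 97. Of the germinal center markers, BCL6, the repressor that holds the germinal center program, fell by 2.49 on the log2 scale, whereas the other 3 did not pass the test. Of the plasma cell markers, PRDM1 fell by 1.85 on the log2 scale (255 and 282 reads against 69 and 73, limma adjusted p = 0.00224), and SDC1 and XBP1 were lower without overlap but did not pass. Of the fibroblast genes, DCN was at 0 throughout, COL1A2 had at most 1 read, and COL1A1 had 8 and 4 reads against 15 and 8. The part of these markers in the results was not tested.

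Most nucleoporin and transport receptor mRNAs were higher in the GNA13-deficient-labelled libraries. Of the 44 members tested, 23 rose (52.3%), 4 fell (9.09%) and 17 did not pass the test at an adjusted p under 0.05. Among all genes tested 2218 rose, 13.1%, and 2819 fell, 16.6%. The members are well expressed genes, 41 of 44 at or above the median level, and among all genes at or above that level 21.3% rose, against 56.1% (23 of 41) of the members there. The 2 genotypes did not overlap for 35 members that were higher and 5 that were lower, whereas 31.3% of all genes did not overlap and were higher and 34.0% did not overlap and were lower. The median difference was 0.268 over the members and −0.024 over all genes. Under quantile normalization these medians lay closer, at 0.177 and 0.068, so that the members stood 0.109 above all genes rather than 0.293, and 16.2% of all genes rose against 16 members. The difference was positive for 38 members, among them IPO8 and XPO6, whose sign turned under quantile normalization, and negative for 6, among them NUP98 and TNPO2, whose sign turned under median centring.

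The shift was alike in both libraries of a genotype. The members' median distance from the control mean was −0.001 and 0.001 in the control libraries and 0.286 and 0.226 in those labelled GNA13-deficient, with a pooled SD of 0.03. Summed over all members, normalized reads were 221401 and 219921 in the control and 278055 and 267022 in the other genotype, a ratio of 1.24, against 1.03 over all genes. In bulk RNA, a larger share of cells expressing a gene and more of its RNA per cell cannot be told apart. Genes of dividing cells moved with the members: MKI67, TOP2A, CCNB1, PCNA and MCM2, chosen after their values were seen, all rose, by 0.59 to 1.27 on the log2 scale, with summed normalized reads of 40104 and 40449 against 78957 and 77048. Their part in the members' difference was not tested. Centring each library on its median moved the median of all genes to 0.184 and that of the members to 0.476. Under it 37 members rose and 2 fell, 25.4% of all genes rose, and 69.1% of all calls were higher, against 44% with the deposited scaling. IPO5, KPNA2, NUP160, NUP54 and NUP85 rose under every setting that kept all 4 libraries. The other members that rose lost their call under at least 1 of these. Without a filter on low values 11 rose (as did 3.25% of all genes), namely IPO5, IPO13, KPNA2, KPNA3, NUP107, NUP133, NUP155, NUP160, NUP54, NUP62 and NUP85. When the variance was not allowed to follow the level 6 rose (as did 5.82% of all genes), namely NUP43 and the first-named 5. Quantile normalization ended the calls of IPO4, KPNB1, NUP133, NUP153, NUP205, NUP210, XPO1 and XPOT and added NUP210L, and voom on the recovered reads those of IPO4, NUP133, NUP205, XPO1 and XPOT. Without any 1 of the 4 libraries, which left 1 residual degree of freedom, limma called no gene at the adjusted threshold and 5257 to 5600 genes at an unadjusted p under 0.05.

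**Figure D1:**
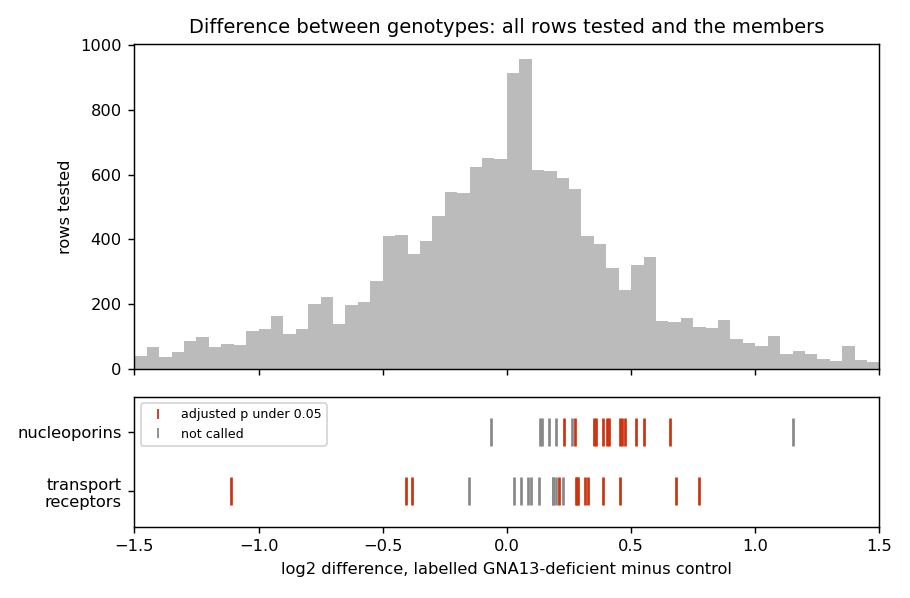
Histogram (top) of the log2 difference, labelled GNA13-deficient minus control, over the genes tested, with the members as ticks (bottom) for nucleoporins and transport receptors, red where the adjusted p was under 0.05. The axis runs from −1.5 to 1.5, so NUP62CL at −4.55 lies outside it; most member ticks lie to the right of 0, while the histogram is spread about 0.

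Promoters of 5 members are shown because NUP85, NUP107, NUP160 and KPNA2 rose and NUP62CL fell, and the letters of the E2F motif and the CCAAT box also occur in NUP62CL, though the other motifs marked do not. Each is 300 bases of RefSeq (GRCh38.p14), 250 before and 50 after the transcript start, 5′ to 3′ in the direction of transcription. Capitals mark letters of the E2F motif (TTCCCGC), which cell cycle factors bind, of the ETS motif (CCGGAAG), of the CCAAT box (CCAAT), of the CHR element of mitotic genes (TTTGAA) and of the NRF1 motif (GCGCATGC). NUP85 lies on chromosome 17 (75205429 to 75205728, plus strand), NUP107 on chromosome 12 (68686728 to 68687027, plus strand), NUP160 on chromosome 11 (47848301 to 47848600, minus strand), KPNA2 on chromosome 17 (68035485 to 68035784, plus strand) and NUP62CL on chromosome X (107206384 to 107206683, minus strand).
NUP85: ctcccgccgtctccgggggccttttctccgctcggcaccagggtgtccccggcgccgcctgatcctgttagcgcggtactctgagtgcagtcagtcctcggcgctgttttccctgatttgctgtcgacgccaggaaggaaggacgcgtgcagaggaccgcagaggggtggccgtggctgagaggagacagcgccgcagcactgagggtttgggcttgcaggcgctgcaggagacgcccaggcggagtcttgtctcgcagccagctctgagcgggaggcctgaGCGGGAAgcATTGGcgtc
NUP107: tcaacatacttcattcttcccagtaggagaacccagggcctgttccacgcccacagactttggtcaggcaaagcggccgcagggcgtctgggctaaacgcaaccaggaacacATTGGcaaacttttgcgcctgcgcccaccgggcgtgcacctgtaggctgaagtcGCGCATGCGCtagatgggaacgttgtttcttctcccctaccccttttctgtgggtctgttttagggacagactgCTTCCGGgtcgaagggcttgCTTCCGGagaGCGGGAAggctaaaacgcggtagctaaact
NUP160: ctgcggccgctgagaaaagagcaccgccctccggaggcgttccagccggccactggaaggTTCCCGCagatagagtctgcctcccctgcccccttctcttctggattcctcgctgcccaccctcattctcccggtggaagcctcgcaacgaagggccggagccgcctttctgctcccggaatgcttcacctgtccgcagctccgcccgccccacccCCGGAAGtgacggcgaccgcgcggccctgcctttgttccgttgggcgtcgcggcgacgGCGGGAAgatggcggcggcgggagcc
KPNA2: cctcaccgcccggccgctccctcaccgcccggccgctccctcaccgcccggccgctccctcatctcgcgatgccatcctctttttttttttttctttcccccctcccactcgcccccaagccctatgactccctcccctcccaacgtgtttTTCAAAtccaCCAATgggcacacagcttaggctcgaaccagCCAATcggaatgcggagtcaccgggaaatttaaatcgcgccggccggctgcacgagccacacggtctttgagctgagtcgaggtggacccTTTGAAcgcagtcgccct
NUP62CL: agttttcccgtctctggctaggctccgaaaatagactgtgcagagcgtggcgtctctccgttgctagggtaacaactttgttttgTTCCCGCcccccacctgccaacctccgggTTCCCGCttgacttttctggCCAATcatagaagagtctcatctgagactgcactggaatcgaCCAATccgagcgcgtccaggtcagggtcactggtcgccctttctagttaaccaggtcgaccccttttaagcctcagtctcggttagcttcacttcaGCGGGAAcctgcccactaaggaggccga

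Motifs were searched on both strands, and the 2 NRF1 matches of NUP107 overlap because the palindrome holds the letters in either direction. Of the 39 members with a promoter in the RefSeq table, 8 (20.5%) held the E2F letters, against 6.56% of 27305 promoters of the same length. These were the promoters of IPO11, KPNA3, NUP107, NUP160, NUP210, NUP62CL, NUP85 and TNPO1, of which 6 rose, NUP62CL fell and TNPO1 was not called. Of all 39 members with a promoter, 20 rose. The ETS letters were in 12 members, of which 6 rose (30.8%, against 10.7% of all promoters), and the CCAAT letters in 20, of which 7 rose (51.3%, against 35.7%). CHR letters occurred in 8, of which 5 rose (20.5%, against 15.4%), NRF1 letters in 4, of which 3 rose (10.3%, against 3.27%), and the E-box letters CACGTG in 6, of which 3 rose (15.4%, against 7.43%). NUP62CL, which fell, held 3 E2F matches, more than the 1 in NUP85, which rose. The 27305 promoters are the first listed start of each gene and were not filtered by level, whereas most members are well expressed. No share among genes of like level was taken. A match of letters is a description of the sequence and not a bound site.

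**Figure D2:**
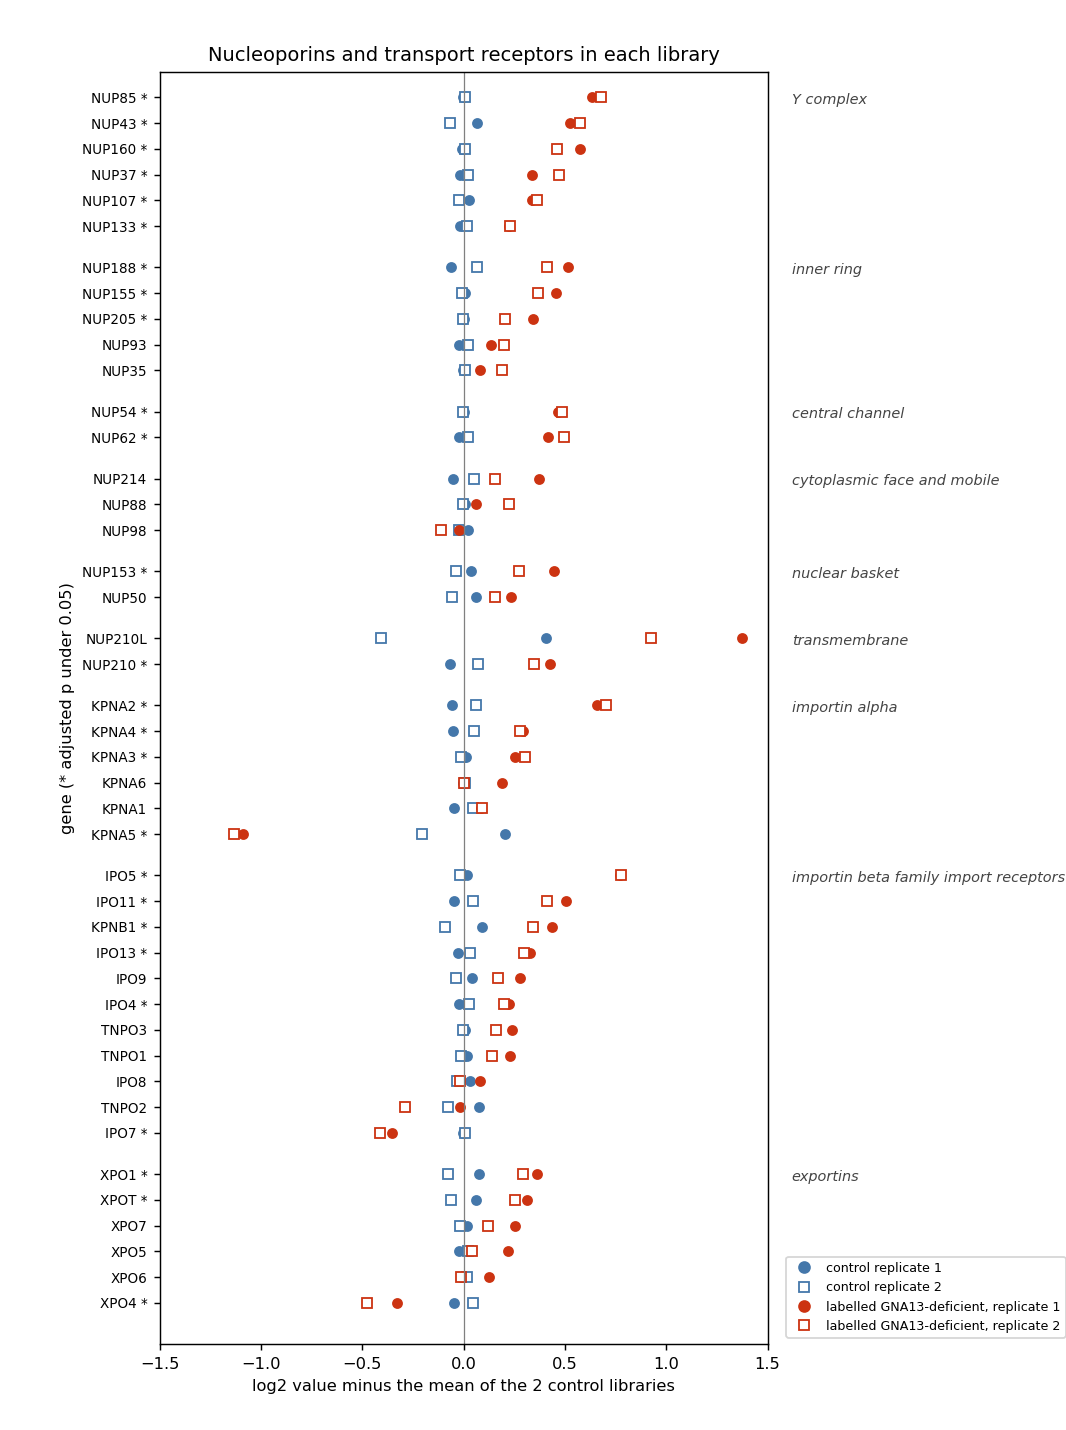
Log2 value of each member minus the mean of its 2 control libraries, one row per gene grouped by role, with circles for replicate 1, squares for replicate 2, blue for control and red for libraries labelled GNA13-deficient; an asterisk marks an adjusted p under 0.05. NUP62CL is off this scale and KPNA7, at 0 throughout, is left out. All 6 genes listed under the Y complex lie to the right of both control points, and KPNA5, IPO7 and XPO4 lie to the left.

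The 6 members matched by name and listed here under the Y complex all rose. Among all genes 13.1% rose, and 21.3% of those at or above the median level. The complex is the outer scaffold that builds the cytoplasmic and nuclear rings of the pore. NUP98, which also encodes a Y complex protein, was listed under another role. It differed by −0.07 without passing the test (limma adjusted p = 0.458). Of the proteins of the complex outside the name rule, SEH1L rose by 0.36 (limma adjusted p = 0.00881). SEC13 differed by 0.28 without passing the test (adjusted p = 0.058). SEC13 did pass with a pseudocount of 1 (adjusted p = 0.0475) or 10 (0.0436), with voom (0.0434), among genes at or above the median level (0.0142), under median centring (0.0198) and with a replicate block (0.00552). The normalized reads of the 6 matched members summed to 17962 and 17967 in the control and to 24819 and 24286 in the GNA13-deficient-labelled libraries, a ratio of 1.37. NUP85, which lies in a short arm of the Y (GRCh37 chromosome 17, 73201754 to 73231853), had log2 values of 10.64 and 10.65 in the control and 11.28 and 11.33 in the other genotype. It rose 1.58-fold, a log2 difference of 0.66 (SE 0.05, limma adjusted p = 0.00222), and its duplicates differed by at most 0.048. NUP43, a small propeller protein attached to NUP85, had log2 values of 10.09 and 9.96 in the control against 10.55 and 10.60. That was a rise of 0.55 (SE 0.07, adjusted p = 0.00668), with no overlap of the genotypes. NUP160, in the other arm of the Y, stood at 12.96 and 12.98 in the control and at 13.54 and 13.43 in the other genotype. Its difference was 0.52 (SE 0.06, adjusted p = 0.00585). NUP37, the partner of NUP160, was at 9.85 and 9.89 against 10.21 and 10.34, a rise of 0.40 (SE 0.07, adjusted p = 0.0161). The stem proteins NUP107 and NUP133, whose order at the base of the Y links one complex to the next, rose by 0.35 and 0.23. The call of NUP133 was lost under quantile normalization (0.18, adjusted p = 0.0508), with voom (adjusted p = 0.0649) and without the variance trend (adjusted p = 0.138). Without the variance trend NUP107 (adjusted p = 0.0708) and NUP37 (0.0762) were not called either, and without a filter NUP37 (0.085) and NUP43 (0.057) were not.

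The inner ring genes NUP188, NUP155 and NUP205, 3 of 5 tested, rose as well (60%). Among all genes 13.1% rose, and 21.3% of those at or above the median level. NUP188 had log2 values of 12.69 and 12.82 in the control and 13.27 and 13.17 in the GNA13-deficient-labelled libraries, a difference of 0.46 (SE 0.07, adjusted p = 0.0117). NUP155, which ties the ring to the membrane, was at 11.47 and 11.45 against 11.91 and 11.83, a difference of 0.41 (SE 0.06, adjusted p = 0.00766). NUP205, the paralog of NUP188, was at 12.64 and 12.63 against 12.98 and 12.83, a difference of 0.27 (SE 0.07, adjusted p = 0.0395). Its call was lost under quantile normalization (0.15, adjusted p = 0.186), with voom (0.0772), without a filter (0.149) and without the variance trend (0.146), each an adjusted p. All 5 inner ring genes were higher without overlap of the genotypes, as were 31.3% of all genes. NUP93, the adaptor that holds the ring together, differed by 0.17 (95% interval 0.03 to 0.31, adjusted p = 0.0797) and NUP35 by 0.13 (−0.06 to 0.33, adjusted p = 0.257), and neither passed the test. NUP93 did pass with a replicate block (adjusted p = 0.0234) and under median centring (0.0154), and NUP35 under median centring (0.0357).

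NUP54 and NUP62, both of the channel trimer whose repeats form the permeability barrier, rose by almost the same amount. NUP54 was at 10.67 and 10.67 in the control and at 11.13 and 11.16 in the other genotype, a difference of 0.47 (SE 0.05, adjusted p = 0.00415). NUP62 was at 12.48 and 12.53 against 12.92 and 13.00, a difference of 0.46 (SE 0.06, adjusted p = 0.00649). The exons of NUP62 overlap those of IL4I1 on the same strand and of ATF5 on the other, and those of NUP54 overlap ART3 on the other strand, so reads could be shared if strand or overlap was not resolved in counting. The third partner of the trimer, listed under its older symbol NUPL1 and so outside the name rule, is described with the other pore proteins.

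Of the 3 members matched by name and listed as cytoplasmic face or mobile proteins, none passed the limma test, where 13.1% of all genes rose and 16.6% fell. At an unadjusted p under 0.05 NUP214 alone did. None passed with voom on the recovered reads, whereas NUP214 passed among genes at or above the median level (adjusted p = 0.026) and, under median centring, NUP214 (adjusted p = 0.017) and NUP88 (adjusted p = 0.033) did. NUP98, which shuttles on and off the pore and is the most abundant of these 3 in log2 value, was at 12.83 and 12.79 in the control and 12.79 and 12.70 in the GNA13-deficient-labelled libraries, a difference of −0.07 (95% interval −0.22 to 0.09, adjusted p = 0.458), with a positive sign under median centring. NUP88 differed by 0.14 (−0.04 to 0.32, adjusted p = 0.21) and its partner NUP214, an anchor of the cytoplasmic filaments, by 0.26 (0.03 to 0.50, adjusted p = 0.0903). The summed reads of the 3 genes had a ratio of 1.05, the lowest of the 9 roles. Whether this role differs from the Y complex was not tested. Of the cytoplasmic-face proteins outside the name rule, RAE1 and GLE1 rose, NUPL2 fell, and RANBP2 (0.07, adjusted p = 0.632, negative under quantile normalization) and AAAS (0.11, adjusted p = 0.178) did not pass.

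In the nuclear basket, NUP153 was at 12.66 and 12.58 against 13.06 and 12.89, a rise of 0.36 (SE 0.08, adjusted p = 0.0278). Its call was lost under quantile normalization (0.24, adjusted p = 0.075), without a filter (0.147) and without the variance trend (0.115). TPR, a basket protein outside the name rule, differed by 0.375 without passing the test (95% interval −0.01 to 0.76, limma adjusted p = 0.127). TPR did pass with a replicate block (adjusted p = 0.00205), under median centring (0.0298) and among genes at or above the median level (0.022). NUP50, which binds NUP153 and helps importin alpha release its cargo, differed by 0.20 (95% interval 0.02 to 0.37, adjusted p = 0.0895). NUP50 did pass with a replicate block (adjusted p = 0.0161), under median centring (0.00907) and among genes at or above the median level (0.0485). The transmembrane nucleoporin NUP210, one of the anchors of the pore in the envelope, was at 13.83 and 13.96 in the control and 14.32 and 14.24 in the other genotype. It rose by 0.39 (SE 0.08, adjusted p = 0.0226, and 0.0542 under quantile normalization), and at 2120 normalized reads per kb of transcript in the control it had the highest level per length of the 21 nucleoporins.

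Importin alpha proteins read the classical nuclear localization signal and hand the cargo to importin beta. Of 6 tested, 3 rose (50%) and 1 fell (16.7%), where 13.1% and 16.6% of all genes did. Of all genes at or above the median level, 21.3% rose. KPNA2, the form typical of dividing cells (GRCh37 chromosome 17, 66031752 to 66043480), was at 13.30 and 13.42 in the control and 14.02 and 14.06 in the GNA13-deficient-labelled libraries. It rose 1.6-fold, a log2 difference of 0.68 (SE 0.07, adjusted p = 0.00373). KPNA4 was at 11.82 and 11.92 against 12.16 and 12.15, and rose by 0.29 (SE 0.06, adjusted p = 0.0236). Its close relative KPNA3 was at 11.77 and 11.74 against 12.01 and 12.06, and rose by 0.28 (SE 0.05, adjusted p = 0.0175). KPNA1 and KPNA6 differed by 0.09 (95% interval −0.06 to 0.23) and 0.10 (−0.10 to 0.30) without passing the test, and KPNA6 overlapped between the genotypes. KPNA5, close in sequence to KPNA1 and KPNA6 and scarce in these cells, fell and is described with the members of few reads.

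Among 11 import receptors of the importin beta family, 5 rose (45.5%, against 13.1% of all genes) and 1 fell (9.09%, against 16.6%). All 11 lay at or above the median level, where 21.3% of genes rose. IPO5, which imports ribosomal proteins and histones (GRCh37 chromosome 13, 98605912 to 98676550), had log2 values of 13.75 and 13.71 in the control and 14.50 and 14.51 in the GNA13-deficient-labelled libraries. Its rise of 0.77 (SE 0.06, adjusted p = 0.00222), 1.71-fold, was the largest difference among the members that rose. IPO11 was at 10.87 and 10.97 against 11.42 and 11.33, a difference of 0.46 (SE 0.07, adjusted p = 0.00878), with the reservation that its exons overlap those of LRRC70. KPNB1, importin beta itself, was at 14.12 and 13.93 against 14.46 and 14.36, a difference of 0.39 (SE 0.09, adjusted p = 0.0331). The call of KPNB1 was lost under quantile normalization (0.18, adjusted p = 0.249), without a filter (adjusted p = 0.165) and without the variance trend (adjusted p = 0.11). IPO13 and IPO4 rose by 0.31 and 0.21. Most exon bases of IPO4 overlap another annotated gene on the same strand, and its call was lost under quantile normalization (0.10, adjusted p = 0.19), with voom (adjusted p = 0.0819), without a filter (adjusted p = 0.0682) and without the variance trend (adjusted p = 0.161).

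IPO7 (GRCh37 chromosome 11, 9406199 to 9469674), which like IPO5 imports ribosomal proteins and histones, fell. It was at 13.51 and 13.51 in the control and at 13.16 and 13.10 in the GNA13-deficient-labelled libraries, a difference of −0.38 (SE 0.06, adjusted p = 0.0095). The call was lost under median centring (−0.17, adjusted p = 0.0888) and without the variance trend (adjusted p = 0.0624). Its control level per length, 1890 normalized reads per kb, lay near the 2260 of IPO5, and in the other genotype the levels were 1450 and 3870. Both genes have processed pseudogenes that could take part of their reads. The same reservation holds for IPO8, KPNA2, KPNA4, KPNB1, NUP35, NUP50, NUP210, TNPO1, TNPO3 and XPOT, which have processed pseudogenes too. The 5 other members of the importin beta family did not pass the test. TNPO1, TNPO3 and IPO9 differed by 0.18 to 0.22 without overlap between the genotypes. They did pass with a replicate block (adjusted p = 0.0195, 0.0221 and 0.0123) and under median centring (0.0095, 0.00684 and 0.00691). TNPO3 (0.0394) and IPO9 (0.0288) also passed among genes at or above the median level. IPO8 (0.03, 95% interval −0.13 to 0.19, negative under quantile normalization) and TNPO2 (−0.15, −0.44 to 0.13, positive under median centring) overlapped.

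Among 6 exportins, 2 rose (33.3%, against 13.1% of all genes) and 1 fell (16.7%, against 16.6%). Of all genes at or above the median level, 21.3% rose. The summed reads of the exportins had a ratio of 1.14, the lowest of the receptor roles. XPO1, the exporter of proteins with leucine-rich signals, was at 13.83 and 13.68 in the control and 14.11 and 14.05 in the other genotype, a rise of 0.33 (SE 0.08, adjusted p = 0.0363). XPOT, the exporter of tRNA, was at 12.81 and 12.69 against 13.06 and 13.00, a rise of 0.28 (SE 0.07, adjusted p = 0.0354). Both calls were lost under 4 settings: quantile normalization (XPO1 0.18, adjusted p = 0.157, and XPOT 0.17, adjusted p = 0.125), voom (0.0529 and 0.0752), no filter (0.154 and 0.139) and no variance trend (0.122 and 0.136), the latter pairs being adjusted p of XPO1 and XPOT. XPO4 (GRCh37 chromosome 13, 21351468 to 21477187) was at 11.75 and 11.85 in the control and 11.47 and 11.32 in the GNA13-deficient-labelled libraries. It fell by 0.41 on the log2 scale (SE 0.08, adjusted p = 0.0174), and the genotypes did not overlap. This call was lost under median centring (−0.20, adjusted p = 0.11), without a filter on low values (adjusted p = 0.113) and without the variance trend (adjusted p = 0.0897). XPO5, the exporter of microRNA precursors, differed by 0.13 (95% interval −0.07 to 0.33), XPO7 by 0.19 (0.02 to 0.36, adjusted p = 0.0969) and XPO6 by 0.06 (−0.12 to 0.23, negative under quantile normalization). XPO7 did pass with a replicate block (adjusted p = 0.0303). Under median centring XPO7 (0.00964), XPO5 (0.0269) and XPO6 (0.0356) passed.

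By level per length, KPNA2 was the highest of the members. In the control, KPNA2 stood at 5320 normalized reads per kb of transcript, XPO1 at 2770, KPNB1 at 2750 and IPO5 at 2260. In the libraries labelled GNA13-deficient the same genes stood at 8510, 3470, 3600 and 3870, so IPO5 passed both XPO1 and KPNB1 in order. The scale uses the length of 1 annotated transcript a gene, and a different isoform in these cells would change it.

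**Figure D3:**
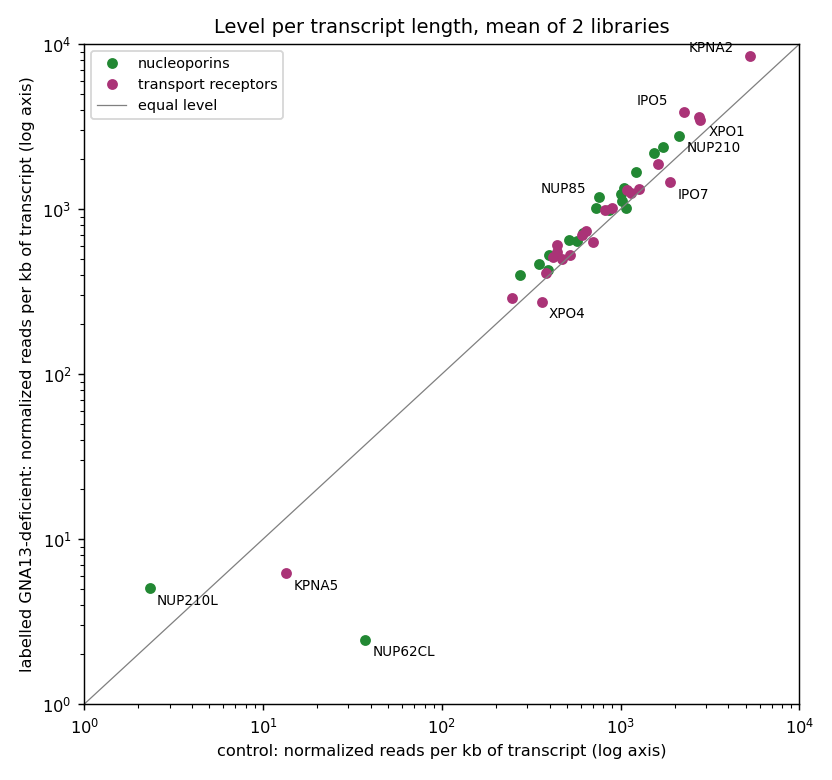
Mean normalized reads per kb of transcript in the 2 control libraries (horizontal, log axis) against the 2 libraries labelled GNA13-deficient (vertical, log axis), green for nucleoporins and purple for transport receptors, with the line of equal level. Most points lie a little above the line; IPO7 and XPO4 lie below it, as do NUP98 and TNPO2 by less, and NUP62CL, KPNA5 and NUP210L lie far below the other members in level.

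The 3 members with few reads, NUP62CL, KPNA5 and NUP210L, were the only tested ones below the median level of all genes. NUP62CL, a gene named for its likeness to the C-terminal part of NUP62 (GRCh37 chromosome X, 106366657 to 106449663), had 57 and 74 reads in the control and 1 and 7 in the GNA13-deficient-labelled libraries. The summed 8 reads against 131, scaled as the authors scaled the libraries, gave a ratio of 0.0641 (exact 95% interval 0.0271 to 0.13), and the fitted log2 difference was −4.55 (SE 0.98, adjusted p = 0.0269). Its duplicates differed by 2.88 on the log2 scale where reads were 1 and 7, close to the floor of 3 reads. Without a filter on low values the adjusted p was 0.198, and without the variance trend 0.0924. The difference was −3.11 without GNA13-deficient replicate 1, −5.99 without GNA13-deficient replicate 2 and −2.43 with a pseudocount of 10.

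KPNA5 (GRCh37 chromosome 6, 117002350 to 117063030) had 171 and 133 reads in the control and 69 and 64 in the other genotype. The ratio was 0.459 (exact 95% interval 0.372 to 0.565), and the log2 difference −1.11 (SE 0.21, adjusted p = 0.0185, and 0.0971 without a filter on low values), or −0.72 under quantile normalization (adjusted p = 0.0479). NUP210L, a relative of NUP210 known from testis, had 17 and 10 reads against 33 and 23, a ratio of 2.18 (1.35 to 3.59). The genotypes did not overlap, but it did not pass the test across genes (adjusted p = 0.11), except under quantile normalization (1.63, adjusted p = 0.0256). The intervals on reads cover counting error only.

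**Figure D4:**
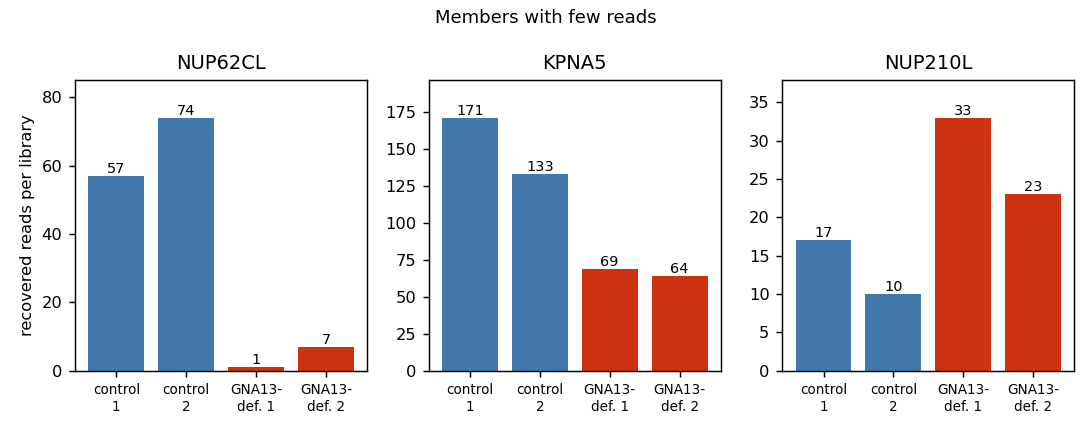
Recovered reads of NUP62CL, KPNA5 and NUP210L in each of the 4 libraries (bars from 0, number above each bar), blue for control and red for libraries labelled GNA13-deficient. NUP62CL drops from 57 and 74 reads to 1 and 7 and KPNA5 from 171 and 133 to 69 and 64, while NUP210L has at most 33 reads.

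Of 13 pore proteins whose symbols the name rule did not match, 6 rose (46.2%, against 13.1% of all genes) and 2 fell (15.4%, against 16.6%), with a ratio of summed reads of 1.14. All 13 lay at or above the median level, where 21.3% of genes rose. NUPL1, also called NUP58, the partner of NUP54 and NUP62 in the channel trimer, was at 11.47 and 11.37 in the control and 11.95 and 11.91 in the GNA13-deficient-labelled libraries. It rose by 0.51 (SE 0.06, adjusted p = 0.00485), which sets it beside the 0.47 and 0.46 of its partners. AHCTF1, also called ELYS, which starts pore assembly on chromatin after mitosis, rose by 0.38 (SE 0.09, adjusted p = 0.0369). RAE1, an mRNA export factor bound to NUP98, rose by 0.36 (SE 0.06, adjusted p = 0.0123). SEH1L, a Y complex protein, GLE1 and TMEM48, also called NDC1, made up the rest of the 6. The 2 that fell were POM121, a transmembrane nucleoporin, by 0.28, and NUPL2, also called NUP42, by 0.26 on the log2 scale, and neither call held under median centring (adjusted p = 0.491 and 0.512). With voom the calls of AHCTF1 (adjusted p = 0.0623), GLE1 (0.103) and TMEM48 (0.141) were lost, and under quantile normalization those of GLE1 (0.0801) and TMEM48 (0.0666), while SEC13 gained a call with voom (0.0434). Under either setting 4 of the 13 were called higher, where 11.2% of all genes rose with voom and 16.2% under quantile normalization. POM121 could share reads with its near-identical copy POM121C, which differed by −0.25 without passing the test, so neither should be read alone. POM121C did pass, as lower, under quantile normalization (adjusted p = 0.023), with voom (0.0151), a replicate block (0.0137) or a pseudocount of 10 (0.0483). It also passed among genes at or above the median level (0.0212).

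The Ran cycle supplies the direction of transport. Of 16 genes for Ran, its regulators and other transport factors, 15 were tested, 8 rose (53.3%, against 13.1% of all genes) and none fell (against 16.6%) by limma, also at an unadjusted p under 0.05, with 1 at a negative difference (SNUPN, −0.15, adjusted p = 0.128, positive under median centring). Of the 15, 14 lay at or above the median level, where 21.3% of all genes rose. RANBP1, which helps RanGAP dismantle complexes with RanGTP, was at 12.59 and 12.64 in the control and 13.31 and 13.42 in the GNA13-deficient-labelled libraries, a rise of 0.75 (SE 0.06, adjusted p = 0.00259). RANGAP1, the GTPase activator on the cytoplasmic side, was at 12.63 and 12.70 against 13.05 and 13.08, a rise of 0.40 (SE 0.06, adjusted p = 0.00774). RANGRF, a Ran-binding factor, rose by 0.39 (SE 0.10, adjusted p = 0.0433). RAN itself differed by 0.24 (95% interval −0.02 to 0.51, adjusted p = 0.142) and RCC1, the exchange factor on chromatin, by 0.30 (−0.01 to 0.60, adjusted p = 0.125), and neither passed the test. RCC1 did pass under quantile normalization (adjusted p = 0.0343) and median centring (0.0361), and RAN under median centring (0.0459) and with a replicate block (0.00794). RANBP17 was listed at 0 in all 4 libraries. With voom on the recovered reads, 3 of the 15 rose and none fell. RANGRF was not called without a filter (adjusted p = 0.158), nor RANGRF (0.114) and RANGAP1 (0.0593) without the variance trend.

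**Figure D5:**
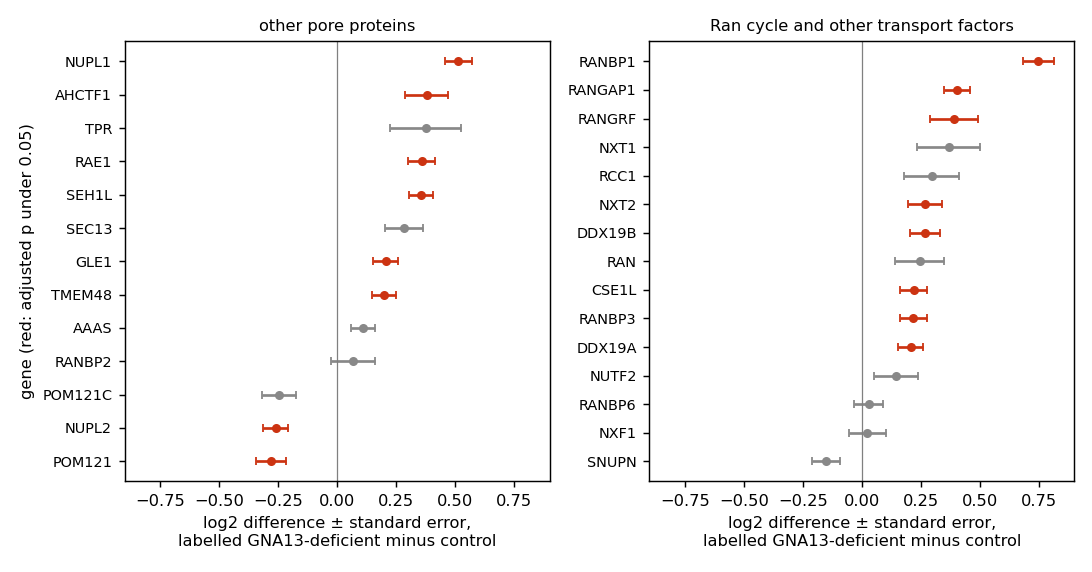
Log2 difference, labelled GNA13-deficient minus control, with its standard error for 13 other pore proteins (left) and 15 genes of the Ran cycle and other transport factors (right), red where the adjusted p was under 0.05. NUPL1 and RANBP1 lead their lists at 0.51 and 0.75, and POM121 and NUPL2 are the red points to the left of 0.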

How the data were processed

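RNA was sequenced from 2 control and 2 GNA13-deficient NUDUL1 libraries (TruSeq stranded poly(A) kit). Alignment was with STAR against hg19, after which the authors normalized the read numbers and deposited log2 values; the submitters' processing notes name HTSeq. The annotation, the use of strand and the normalization method are not given in the sources used here. A deposited row of mapped totals, on a linear scale, gave the depth. Low values step in whole reads, and 100% of those up to 400 reads came out whole (within 0.01 reads at 1 read and 0.22 reads at 400), so that reads could be recovered (floor 3 reads, log2 1.56 to 1.69). Control replicate 2 had 0 genes at 1 read, against 1269 to 1314 in each other library, so a listed 0 there could stand for 1 read. All 4 sample columns were mapped to samples.

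Values were fitted with limma 3.58.1 in R 4.3.3 (lmFit, eBayes with a mean-variance trend, genotype only) over the 16945 genes above 0 in at least 2 libraries, with Benjamini-Hochberg adjustment and a threshold of 0.05. Coordinates and the length of the canonical transcript came from GENCODE v44lift37 on GRCh37, the build of hg19. Per role, called members have values in every library (at most the 4 with the largest difference, besides those with few reads), or the highest member if none was called, and of the other lists the 3 largest called are named; other genes of those lists were named after their values were seen. The genes and lists were chosen with earlier results of these data known. Alternatives covered the filter, pseudocount, scaling, variance model, replicate block and each library left out.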

Additional observations from a re-analysis of the deposited data

How the results depend on the processing

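IPO5, KPNA2, NUP160, NUP54 and NUP85 kept their call under all 10 settings that used the 4 libraries. Without a filter on low values 1999 genes were called, and 11 members rose and 1 fell. With no variance trend 2718 genes were called, and 6 members rose and 1 fell. A fit of only the genes at or above the median level gave 27 members higher, where 26.3% of the genes in it rose. It left 2 members lower, because KPNA5 and NUP62CL were then not tested. Median centring gave 37 higher, 2 lower and a median of 0.476, quantile normalization a median of 0.177 (0.068 over all genes) with 16 higher, and voom a median of 0.219 (−0.067 over all genes) with 18 higher. Other pore proteins called higher were 3 without a filter and 1 with no trend, and Ran cycle genes 2, 1 and, with voom, 3. With a replicate block 6616 genes were called, and 18.0% of all genes rose. Under it 29 members rose and 4 fell, and 10 Ran cycle genes and 8 other pore proteins rose. Libraries with the same number deviated together (r = 0.453 across 8473 genes), but no source says that the number pairs them. Leaving out each library in turn gave 0 genes, members or listed genes called by limma at the adjusted threshold, with 1 residual degree of freedom. At an unadjusted p under 0.05 there were then 5257 to 5600 genes and 21 to 31 members, with members' medians of 0.226 to 0.286.

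Signs turned for genes not called with the deposited scaling, of which IPO8 and XPO6 were called higher under median centring (adjusted p = 0.03 and 0.0356): IPO8 (−0.01 quantile, −0.019 voom), XPO6 (−0.053 quantile), NUP98 (0.142) and TNPO2 (0.055) under centring, RANBP2 (−0.051 quantile), RANBP6 (−0.021 voom), SNUPN (0.056, centring) and NXF1 (−0.03 quantile, −0.025 voom). Leaving out each library in turn gave differences of −0.019 to 0.078 for IPO8, −0.012 to 0.126 for XPO6, −0.055 to 0.189 for RANBP2, −0.014 to 0.07 for RANBP6 and −0.053 to 0.098 for NXF1. Over the members, the settings with all libraries gave 357 values of the same call and sign, 25 newly past the threshold, 50 no longer past it and 5 of opposite sign. Genes near the floor of 3 reads are limited by depth. The cause of these changes was not tested.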

Other observations

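Genes of the nuclear lamina and envelope, a list chosen after its values were seen, were measured beside the pore. Of 13, 5 rose in the libraries labelled GNA13-deficient and 2 fell (13.1% and 16.6% of all genes). Of these 13, 12 lay at or above the median level, where 21.3% of all genes rose. LMNB1, a B-type lamin under the inner membrane, was at 13.07 and 13.02 in the control and 13.85 and 13.78 in the other genotype, a log2 difference of 0.77 (SE 0.06, limma adjusted p = 0.00222). TMPO rose by 0.65, EMD by 0.55, LBR, the lamin B receptor, by 0.50 and LMNB2 by 0.25. LEMD2, an inner membrane protein, and UNC84A, also called SUN1, a link from the lamina to the cytoskeleton, each fell by 0.42 on the log2 scale. LMNA, the A-type lamin, had 70 and 61 reads in the control and 64 and 89 in the other genotype, and the genotypes overlapped.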
